A study of Macaca mulatta with 19 samples.

Results

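The 8 genes of prostaglandin synthesis, reception and breakdown described here were followed across luteinized granulosa cells of 19 rhesus macaques, with 1 library per animal. They were the 8 rows of the count table, of 32386 genes, that carry the symbols PTGS1, PTGS2, PTGES, PTGES2, PTGES3, PTGER2, PTGER4 and HPGD. In the preovulatory follicle the gonadotropin surge induces PTGS2 (COX-2), which turns arachidonic acid into prostaglandin H2. The terminal synthase PTGES then makes prostaglandin E2, and PTGER2 and PTGER4 (the EP2 and EP4 receptors) pass its signal on by raising cyclic AMP. The dehydrogenase HPGD inactivates prostaglandin E2, and inhibitors of prostaglandin synthesis block follicle rupture and cumulus expansion in several mammals.

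Female macaques received implants from around menarche that held cholesterol (C) or testosterone (T, raising testosterone 4 to 5 fold above C) and ate standard chow or a Western-style diet (WSD). After about 3.5 years of treatment, the single follicle that each animal had selected naturally was aspirated just before ovulation in a controlled ovulation cycle. Each treatment enrolled 10 animals, of which 7 to 10 entered such cycles, and the libraries cover 4 animals of Chow+C (the control), 4 of Chow+T, 5 of WSD+C and 6 of WSD+T. The oocyte of the same follicle was at metaphase I (MI) in 8 libraries, at metaphase II (MII) in 4, Degenerating in 6 and at the germinal vesicle stage (GV) in 1. Of the MI follicles 3 were from Chow+C, 3 from WSD+C and 2 from WSD+T, and of the MII follicles 1 was from Chow+C, 2 from Chow+T and 1 from WSD+T. The GV follicle was from Chow+T. The Degenerating class had 1 follicle from Chow+T, 2 from WSD+C and 3 from WSD+T, so 5 of its 6 came from animals on WSD. Libraries are written as the group and a number that only names the animal, as in WSD+C 4.

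Gene counts ranged from 28832132 to 56385679 per library. The lowest count was that of Chow+C 2, where 49.1% of reads fell in genes, against 55.85% or more elsewhere. In Chow+C 2, 33.5% of reads fell in no annotated feature, the largest such share. The part of this in the values of Chow+C 2 was not tested. Of 10 granulosa markers measured, 9 reached 1 CPM (reads relative to the library total, scaled by TMM) in every library, and the tenth, LHCGR, fell to 0.42 CPM in WSD+C 4. Libraries WSD+C 4 and WSD+T 6, both from follicles with a Degenerating oocyte, stood apart before any comparison. Their leukocyte marker score, the mean log2 CPM of 10 pan-leukocyte genes, was 7.37 and 7.10 against 0.16 to 4.70 in the other 17. It ranged from 0.16 to 3.35 over MI, from 2.23 to 3.48 over MII and from 0.74 to 7.37 over Degenerating follicles. Of the 11 listed genes measured, RAC2 was at 0 in every library and left out, and SRGN, which stood at 139 CPM or more everywhere, was lowest in WSD+C 4; the other 9 were highest in WSD+C 4 or WSD+T 6. WSD+C 4 also had the lowest granulosa score (5.99 against 7.73 to 9.49 elsewhere) and the highest erythroid score (9.11 against 2.99 or less). Its scores of oocyte (5.11 against 1.52 or less), smooth muscle (5.49 against 2.41 or less), surface epithelium (4.56 against 1.95 or less) and lymphocyte markers (4.58 against 1.07 or less) were the highest too. The macrophage score was 7.10 in WSD+T 6, 4.15 in WSD+C 4 and 2.94 or less elsewhere. The part of these other cells in the member differences was not tested. The aspirates were not described as sorted, and in bulk RNA fewer cells of a type and less RNA per cell cannot be told apart.

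PTGS2 stood at 183 CPM or more in 18 of the 19 libraries, and no treatment difference exceeded the spread between animals. Its CPM in Chow+C was 631, 1201, 183 and 1006 in replicates 1 to 4. In Chow+T it was 1350, 1497, 938.5 and 688, and in WSD+C 1303, 2354, 1129, 35.8 and 2193. In WSD+T the lowest, median and highest values were 343, 1244 and 1526. The group medians ran from 819 in Chow+C over 1144 in Chow+T and 1244 in WSD+T to 1303 in WSD+C, and every neighbouring pair of groups in that order overlapped. The value of 35.8 in WSD+C 4, from 1517 reads, was the lowest of the series, and without that library the other 4 WSD+C values averaged 1745 ± 618 (SD).

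The fitted log2 fold changes of PTGS2 against Chow+C were 0.57 (SE 0.77) in Chow+T, 0.89 (SE 0.74) in WSD+C and 0.53 (SE 0.71) in WSD+T. Their adjusted p-values in edgeR's quasi-likelihood test were 0.89, 0.887 and 0.865. The 95% confidence interval for WSD+C, from -0.66 to 2.45, left room for a several-fold rise as well as for a fall. When WSD+C 4 and WSD+T 6 were both left out, the WSD+C difference was 1.20 with an adjusted p of 0.713. Animals of 1 group share their treatment but were sampled once each. The test thus set each difference against the variation between animals, from which that of aspirate and library could not be separated.

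**Figure D1:**
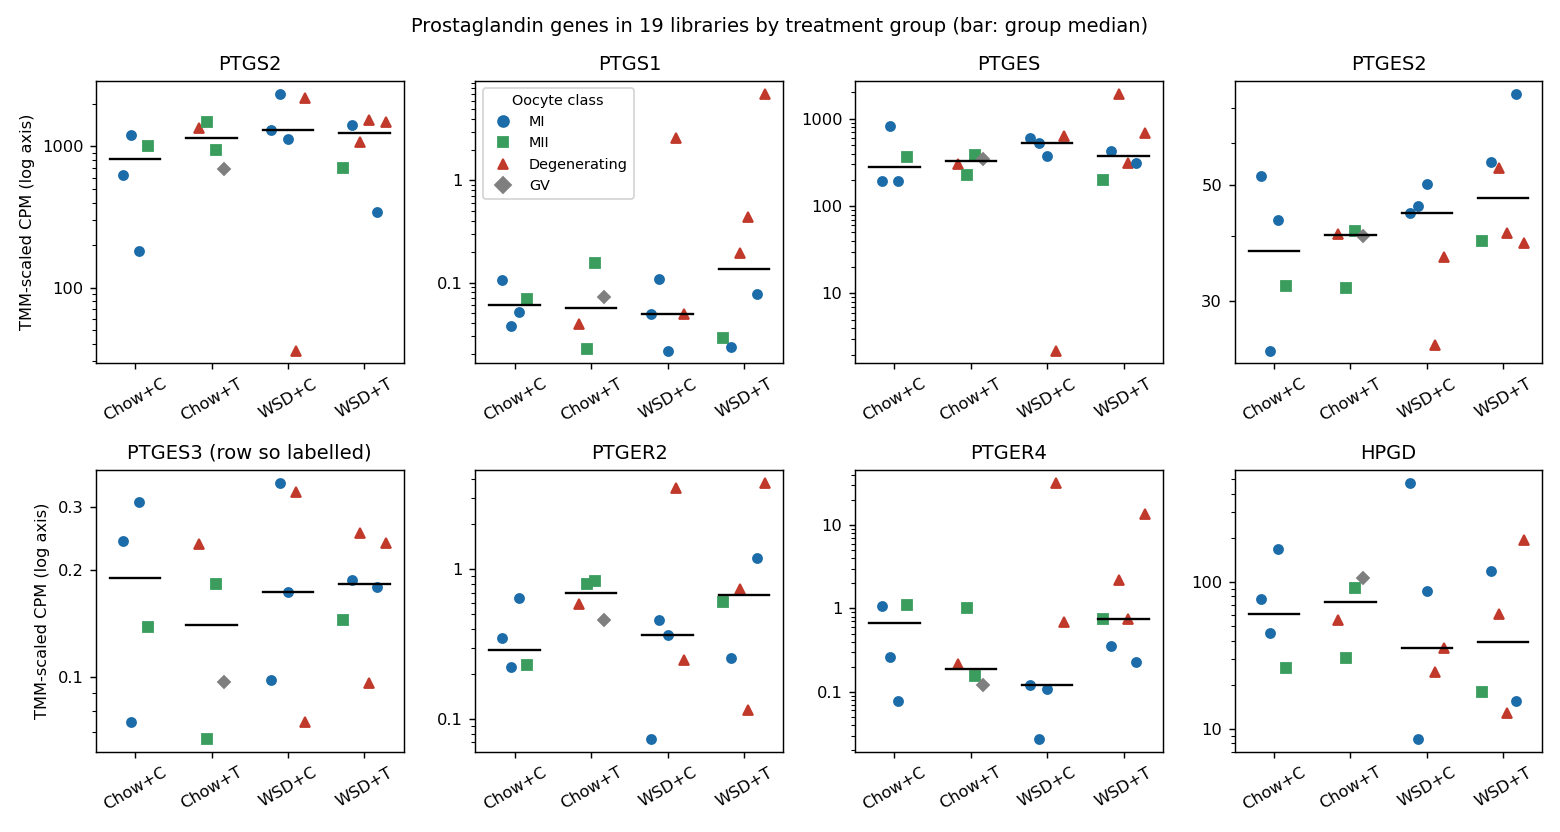
Level of each of the 8 genes (TMM-scaled CPM, log axis) in 19 libraries by treatment group, with the oocyte class of the follicle as colour and marker and a bar at the group median. In every panel the 4 groups overlap; PTGS2 and PTGES have 1 very low WSD+C library (35.8 and 2.22 CPM), and PTGS1, PTGER2 and PTGER4 each have 1 high library in WSD+C and 1 in WSD+T.

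PTGS1 (COX-1), the constitutive cyclooxygenase, was near the floor of detection in 17 libraries, where 1 to 23 reads were counted. WSD+C 4 held 109 reads (2.57 CPM) and WSD+T 6 held 265 (7.01 CPM). The third highest value was 0.44 CPM, in WSD+T 4. PTGS1 did not pass the filter on low counts and was not among the genes tested, and its 2 high libraries were those with the high leukocyte scores. With no filter, the difference of PTGS1 between Degenerating and MI follicles was 4.54 on the log2 scale, with an adjusted p of 0.178.

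PTGES, the inducible microsomal synthase that acts after PTGS2, had its lowest and its highest library in the WSD groups. In Chow+C it was at 192, 821, 192 and 365 CPM, and in Chow+T at 302, 226, 380 and 349. In WSD+C it was at 594, 528, 372, 2.22 and 628, and in WSD+T the lowest, median and highest values were 201, 373 and 1926. All 4 groups overlapped. The highest value was that of WSD+T 3, and the lowest, in WSD+C 4, rested on 94 reads. Without WSD+C 4 the SD of WSD+C fell from 3.53 to 0.34 on the log2 scale, against 1.0 in Chow+C. The fitted log2 fold change of WSD+T against Chow+C was 0.71 (SE 0.86, adjusted p = 0.849 in edgeR), and it became -0.01 when WSD+T 3 was left out.

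PTGES2, a second microsomal synthase, was the steadiest of the 7 tested rows that carry a member symbol. An unlabelled row that may be PTGES3, described below, varied less. The SD of PTGES2 over the 19 libraries was 0.39 on the log2 scale, lower than that of most genes tested, of which 32.2% varied less. It ranged from 24.2 CPM in Chow+C 2 to 74.5 in WSD+T 5. Chow+C held 51.9, 24.2, 42.8 and 32.1 CPM and Chow+T 40.4, 31.8, 40.8 and 39.97. WSD+C held 44.2, 45.6, 50.2, 24.8 and 36.5, and WSD+T had a lowest value of 38.8, a median of 47.2 and a highest of 74.5. The WSD+T values thus reached highest, but Chow+C 1 lay above the WSD+T median. The log2 fold change of WSD+T against Chow+C was 0.42 (SE 0.24, 95% confidence interval -0.09 to 0.92, adjusted p = 0.717 in edgeR).

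PTGES3, the cytosolic synthase that is also the HSP90 co-chaperone p23, could not be described from its labelled row. That row (ENSMMUG00000046614) held 2 to 14 reads per library. A reference list of gene names gives the symbol to another identifier, ENSMMUG00000013766, which has no symbol in the count table and held 1703 to 5129 reads. This second row was even between animals, at 63.4 to 100.3 CPM with an SD of 0.20 on the log2 scale, and 3.89% of the genes tested varied less. Which row carries the synthase was not tested. No difference of either row between treatments or oocyte classes passed the test: the smallest unadjusted edgeR p was 0.301 for the labelled row and 0.122 for the second.

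Both receptors rested on few reads in most libraries. PTGER2 held 3 to 47 reads in 17 libraries, 149 in WSD+C 4 and 144 in WSD+T 6. In Chow+C it was at 0.35, 0.22, 0.64 and 0.23 CPM, and in Chow+T at 0.59, 0.80, 0.83 and 0.46. In WSD+C it was at 0.073, 0.46, 0.37, 3.51 and 0.25, and in WSD+T the lowest, median and highest values were 0.12, 0.67 and 3.81. All 4 groups overlapped, and the values over 3 CPM were those of the 2 libraries with high leukocyte scores. The log2 fold change of WSD+T against Chow+C was 1.62 (SE 0.98, adjusted p = 0.719 in edgeR) and 0.68 without WSD+C 4 and WSD+T 6. That of WSD+C was 1.36 (SE 0.99, adjusted p = 0.858) and -0.34 without them.

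PTGER4 varied most of all members by the SD of its log2 CPM. Its CPM was 1.07, 0.26, 0.077 and 1.10 in Chow+C, and 0.22, 1.0, 0.16 and 0.12 in Chow+T. In WSD+C it was 0.12, 0.027, 0.11, 32.2 and 0.69, and in WSD+T the lowest, median and highest values were 0.23, 0.75 and 13.6. WSD+C thus held both the lowest library of the series (1 read in WSD+C 2) and the highest (1367 reads in WSD+C 4). The SD of PTGER4 over 19 libraries was 2.35 on the log2 scale, and 97.8% of the genes tested varied less, against a median SD of 0.55 over all genes tested.

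The main effect of diet on PTGER4, averaged over both implants, was a log2 difference of 3.19 (SE 1.24, unadjusted p = 0.0199, adjusted p = 0.701 in edgeR). It was -0.10 when WSD+C 4 and WSD+T 6 were left out, and -0.05 when the leukocyte score was a term of the fit. PTGER4 was the only member with an unadjusted p under 0.05 among the 8 treatment contrasts, in this effect of diet, where 6.87% of all genes tested had one. Against Chow+C, PTGER4 differed by 3.39 in WSD+C (SE 1.79, adjusted p = 0.83) and by 2.24 in WSD+T (SE 1.66, adjusted p = 0.752), and by -1.40 and 0.45 without the same 2 libraries.

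HPGD, the enzyme of breakdown, differed more between animals of 1 treatment than between treatments. In Chow+C it was at 76.9, 44.8, 168 and 25.9 CPM, and in Chow+T at 55.6, 30.5, 90.7 and 106. In WSD+C it was at 476, 8.51, 86.8, 24.6 and 35.8, and in WSD+T the lowest, median and highest values were 12.9, 39.0 and 194. The lowest and the highest library of the series were thus both WSD+C follicles with an MI oocyte. Group medians ran from 35.8 in WSD+C over 39.0 in WSD+T and 60.9 in Chow+C to 73.2 in Chow+T, and all neighbours in that order overlapped. The log2 fold change of WSD+C against Chow+C was 0.68 (SE 1.0, adjusted p = 0.965 in edgeR), and it was -1.02 without WSD+C 1.

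The ratio of PTGS2 reads to HPGD reads within a library, which needs no scaling between libraries, spread over more than 2 orders of magnitude. It was 8.21, 26.8, 1.09 and 38.8 in Chow+C and 24.3, 49.1, 10.3 and 6.48 in Chow+T. It was 2.74, 277, 13, 1.45 and 61.3 in WSD+C and ran from 7.71 to 119 in WSD+T. Low ratios came about in different ways: Chow+C 3 paired a low PTGS2 with a high HPGD, WSD+C 4 had the lowest PTGS2 beside 24.6 CPM of HPGD, and WSD+C 1 had the highest HPGD beside an ordinary PTGS2. Across the 19 libraries no relation between the log2 CPM of the 2 genes was detected (Pearson r = 0.03, permutation p = 0.92; Spearman rho = -0.12, adjusted p = 0.83).

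**Figure D2:**
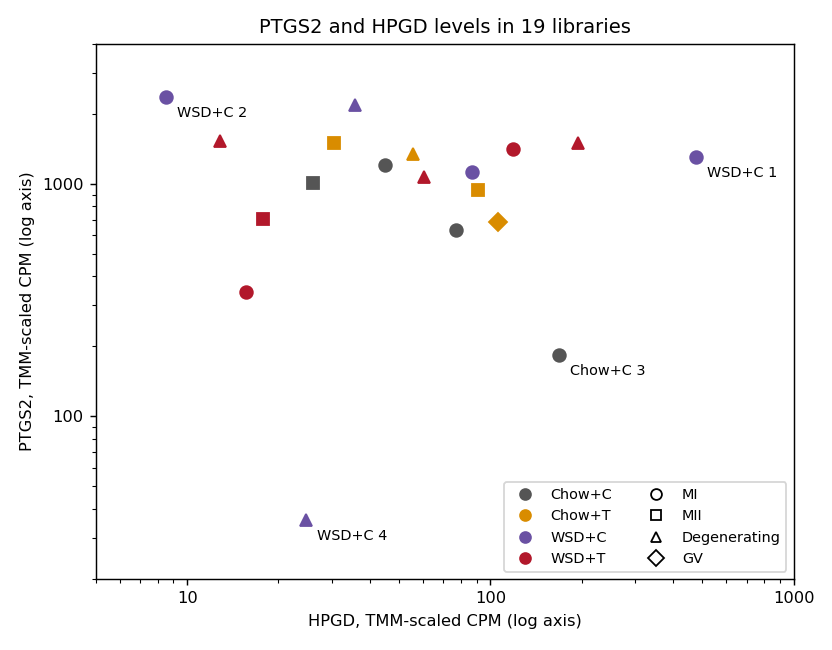
PTGS2 against HPGD in 19 libraries (TMM-scaled CPM, both axes log), with treatment group as colour and oocyte class as marker. The points fill the plot without a trend, HPGD runs from 8.51 CPM (WSD+C 2) to 476 (WSD+C 1), and WSD+C 4 lies alone at 35.8 CPM of PTGS2.

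No member passed the test in any of the 8 contrasts of treatment. With edgeR and adjustment over 15019 genes, 0 of the 7 tested members were called in Chow+T, WSD+C or WSD+T against Chow+C, in WSD+T against WSD+C or Chow+T, in either main effect or in the interaction, and the share of all genes called was 0% in each. At an unadjusted p under 0.05 there was 1 member, PTGER4, in the main effect of diet and 0 in the other 7 contrasts, where 3.86% to 7.18% of all genes had one. In all 8 contrasts limma-voom called 0 of the 7 members and DESeq2 0 of 6, as it gave no p-value for PTGER4. Of the 7 members, 3 were higher in Chow+T than in Chow+C (median log2 difference -0.16), all 7 were higher in WSD+C (median 0.68) and 5 were higher in WSD+T (median 0.53). Over all genes tested, 48.2%, 52.6% and 49.9% were higher, with medians of -0.02, 0.02 and 0.00. These 3 comparisons share the Chow+C libraries. Without WSD+C 4 and WSD+T 6, 4 of 7 members were higher in WSD+C, with a median of 0.22. No member had groups that did not overlap, where 2.66% of genes did for Chow+T, 0.553% for WSD+C and 0.739% for WSD+T against Chow+C.

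**Figure D3:**
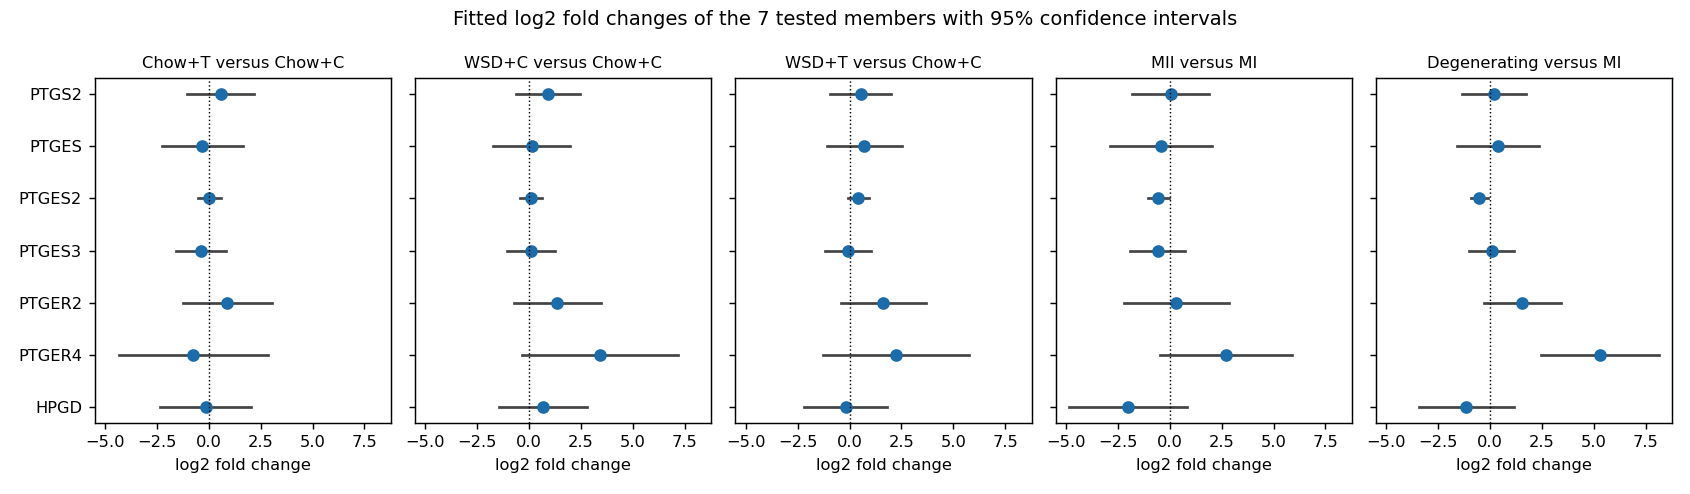
Fitted log2 fold changes (points) and 95% confidence intervals (lines) of the 7 tested members in 3 treatment and 2 oocyte comparisons. The interval lies to 1 side of 0 for PTGES2 in both oocyte comparisons and for PTGER4 in Degenerating versus MI, and it is widest for PTGER4 throughout.

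By the state of the oocyte, PTGER4 and PTGES2 had the smallest unadjusted p-values between Degenerating and MI follicles, with opposite signs. PTGER4 had a lowest, median and highest value of 0.027, 0.18 and 1.07 CPM in 8 MI follicles and of 0.22, 1.48 and 32.2 in 6 Degenerating ones. It was 1.10 in Chow+C 4, 1.0 in Chow+T 2, 0.16 in Chow+T 3 and 0.75 in WSD+T 1, the MII follicles, and 0.12 in the GV follicle. The classes overlapped through Chow+C 1, an MI follicle at 1.07, and Chow+T 1, a Degenerating one at 0.22. In the fit with treatment group as a term, Degenerating follicles exceeded MI follicles by 5.30 on the log2 scale (SE 1.33, 95% confidence interval 2.46 to 8.14), and the unadjusted p was 0.00124. The adjusted p of 0.164 in edgeR did not pass.

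Whether PTGER4 was called between Degenerating and MI follicles depended on the model. DESeq2 gave a difference of 5.39 with an adjusted p of 5.84e-05, where it called 5.41% of genes. In edgeR the adjusted p was 0.0228 without the treatment term, where 3.83% of genes were called, and 0.0461 without Chow+T 1, where 1.51% were called. With the leukocyte score as a term the difference was 0.94 (unadjusted p = 0.119), and without WSD+C 4 and WSD+T 6 it was 2.23 (unadjusted p = 0.0127, adjusted p = 0.971).

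Within the animals on WSD, PTGER4 did not overlap between the 2 oocyte classes, where 4.57% of all genes tested did not. The 5 Degenerating follicles were at 32.2, 0.69, 2.21, 0.75 and 13.6 CPM and the 5 MI follicles at 0.12, 0.027, 0.11, 0.35 and 0.23. The leukocyte score did not overlap between the same 2 sets of libraries, at 2.73 or more in the Degenerating and 2.37 or less in the MI follicles. A fit of these 10 libraries, added after the values were seen, gave PTGER4 a difference of 5.85 (SE 1.37, adjusted p = 0.148 in edgeR).

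PTGES2 had lower medians in MII and Degenerating than in MI follicles. Its lowest, median and highest values were 24.2, 47.9 and 74.5 CPM in MI follicles and 24.8, 39.6 and 53.9 in Degenerating ones, and the MII follicles held 32.1, 31.8, 40.8 and 39.1. The MII range overlapped that of MI only through Chow+C 2, an MI follicle. This library had the lowest value of the series and the smallest share of reads in genes. The Degenerating range overlapped that of MI through WSD+T 3, at 53.9 CPM, as well. The log2 difference from MI was -0.51 in Degenerating (SE 0.19, unadjusted p = 0.0155, adjusted p = 0.245) and -0.56 in MII follicles (SE 0.23, unadjusted p = 0.0303, adjusted p = 1 in edgeR). Without WSD+C 4 and WSD+T 6 the Degenerating difference was -0.37 (unadjusted p = 0.10). Among the 10 libraries on WSD it was -0.56 (adjusted p = 0.152).

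The other members spread within oocyte classes as widely as between them. PTGS2 ran from 35.8 to 2193 CPM in Degenerating follicles, from 183 to 2354 in MI and from 705 to 1497 in MII, and the 95% confidence interval of its log2 difference between Degenerating and MI ran from -1.34 to 1.74. PTGES had medians of 471, 402 and 296 in Degenerating, MI and MII follicles. HPGD had medians of 45.7, 81.9 and 28.2, with a log2 difference of -2.01 in MII (SE 1.33, adjusted p = 1) and -1.15 in Degenerating against MI (SE 1.07, adjusted p = 0.618 in edgeR). PTGER2 differed by 1.55 between Degenerating and MI (SE 0.86, adjusted p = 0.424) and by -0.67 without WSD+C 4 and WSD+T 6.

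Over the 14976 genes of the oocyte fit, edgeR called 0% in MII against MI, in Degenerating against MI and in Degenerating against MII, and 0 of the 7 members. Unadjusted p-values under 0.05 were found for 2 of 7 members in Degenerating against MI, where 14.3% of all genes had one, and for 1 of 7 in MII against MI, where 3.91% did. No member had classes that did not overlap, where 0.861% of genes did in MII and 0.0935% in Degenerating against MI.

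PTGER4 followed the leukocyte markers across all libraries, and no other member did so in every version of the comparison. Of 12 relations computed, that of PTGER4 with the leukocyte score had Pearson r = 0.95 and Spearman rho = 0.92 over 19 libraries (permutation p = 1e-05 for both, the smallest that 100000 resamples can give, and adjusted p = 0.00012 for both). On deviations from the treatment group means r was 0.95, and without WSD+C 4 and WSD+T 6, the libraries farthest from the median score, it was 0.88. PTGS1 and PTGER2 had r = 0.79 and 0.68 with the score (permutation p = 0.00096 and 0.002, adjusted p = 0.0039 and 0.0059). Without these 2 libraries r was 0.28 and 0.22, so the size of both correlations rests largely on them. On deviations from the treatment group means PTGS1 had rho = 0.59 (adjusted permutation p = 0.027). PTGS2, PTGES, PTGES2, HPGD and the row labelled PTGES3 had r between -0.43 and 0.23, with adjusted permutation p-values of 0.17 or more.

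Among the members themselves, PTGS2 and PTGES moved together at r = 0.83 (permutation p = 0.00097, adjusted p = 0.0039) and rho = 0.55 (adjusted p = 0.099). Within treatment groups r was 0.86 and rho 0.68 (adjusted permutation p = 0.00066 and 0.012). Without WSD+C 4 and Chow+C 3, the libraries farthest from the median of PTGS2, r was 0.36 and rho 0.375 (adjusted permutation p = 0.8 and 0.84). The size of r thus depended on these libraries. Leaving them out also narrows the range of PTGS2, so this refit cannot decide whether the other 17 share the relation. PTGS2 had r = -0.52 with PTGER2 (adjusted permutation p = 0.066) and -0.38 with PTGER4 (adjusted p = 0.17).

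**Figure D4:**
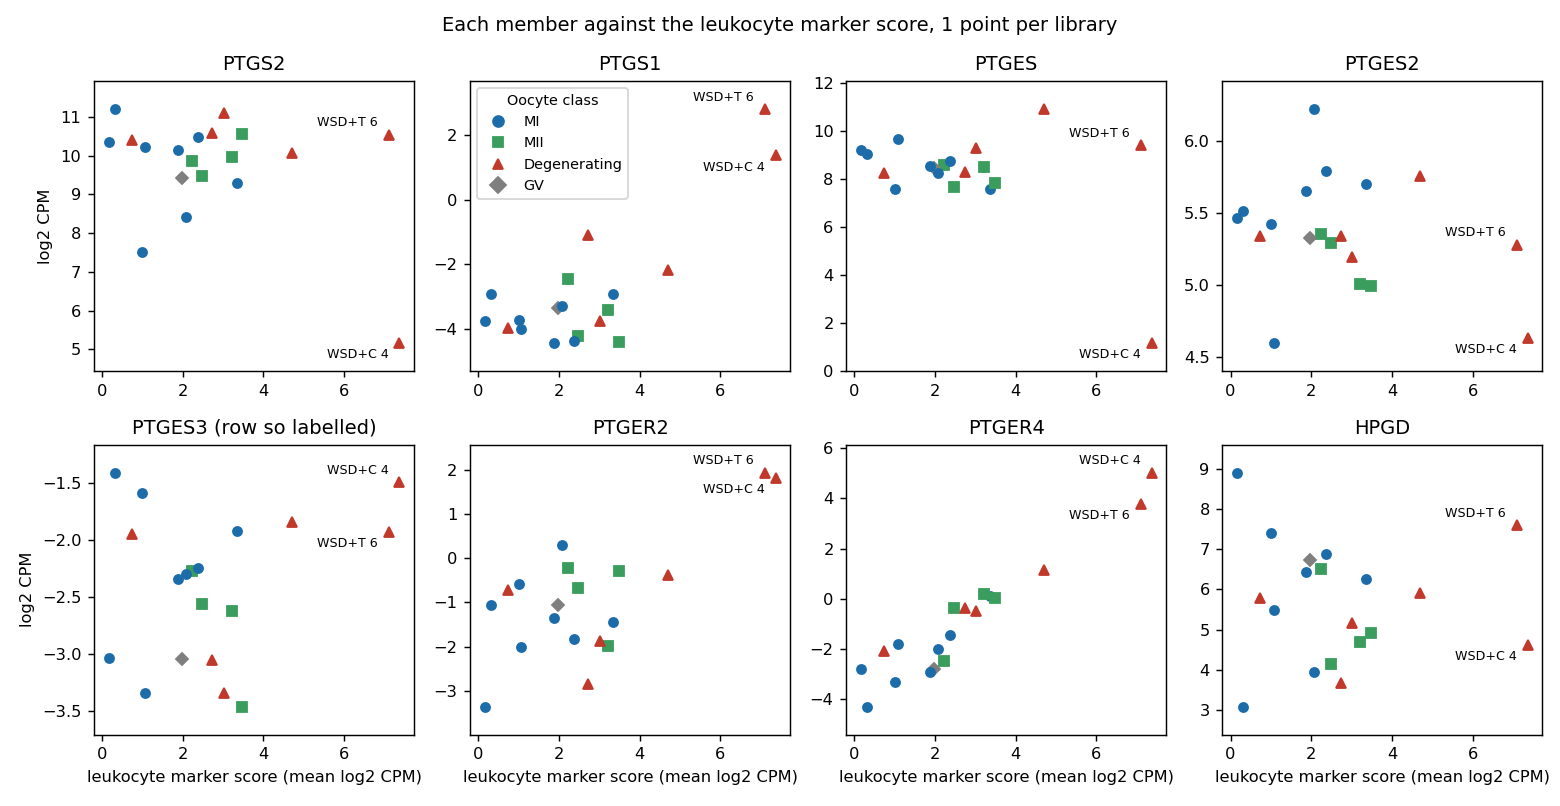
Log2 CPM of each member against the leukocyte marker score (mean log2 CPM of 10 genes), 1 point per library, with the oocyte class as colour and marker. PTGER4 rises along the whole score (r = 0.95), whereas PTGS1 and PTGER2 are high in the labelled libraries WSD+C 4 and WSD+T 6. Among the other 17 libraries their r is 0.28 and 0.22, with adjusted permutation p-values of 0.8.

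The genes whose levels ran most like each member were taken by Spearman rho from the 10374 named genes in the test whose average log2 CPM was 1 or more, as a description over 19 libraries. For PTGER4 they were MNDA (rho = 0.93), a nuclear antigen of myeloid cells, ITGB2 (0.91), the leukocyte integrin beta chain, and CFD (0.91), complement factor D. For PTGS2 they were NAB1 (0.78), APBA1 (0.78) and CD36 (0.76), a fatty acid receptor. For PTGES they were UNC119 (0.91), TMEM200A (0.90) and FAM161A (0.90).

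HPGD ran most like FABP3 (rho = 0.81), a fatty acid binding protein, CYP11A1 (0.80), which starts steroid synthesis from cholesterol, and the receptor kinase AXL (0.74). PTGES2 ran most like BOLA3 (0.94), a mitochondrial iron-sulphur cluster factor, DOLK (0.92) and TYW1 (0.92), and PTGER2 most like XRN2 (0.82), MYC (0.82) and THADA (0.80). PTGS1 ran most like PTGDS (0.83), the prostaglandin D2 synthase, SLC9A3R1 (0.79) and PTBP3 (0.78). The ranks of PTGS1 rest on few reads in most libraries, and its Pearson r with PTGDS was 0.58. The row labelled PTGES3 ran most like LRRC8D (0.81), ACTR3B (0.78) and DIAPH1 (0.75), at counts of 14 or fewer.

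The rest of the pathway was described from a list of 29 genes for arachidonate release, other terminal synthases, other receptors, transport and further breakdown, of which 22 were tested. In edgeR 0 of the 22 were called in any of the 11 comparisons, against 0% of all genes, and 0 to 4 had an unadjusted p under 0.05, as did 3.38% to 14.3% of all genes. The 4 were found in the main effect of diet, all higher on WSD, where 6.87% of all genes had one. Without WSD+C 4 and WSD+T 6 it was 3 of 21 for diet, against 5.34% of all genes. limma-voom also called 0 of the 22 in every comparison. DESeq2, which gave p-values for 20 of the 22 in the treatment contrasts, called TBXAS1 and PTGIR between Degenerating and MI follicles, where it called 5.41% of all genes. Against Chow+C, 12 of 22 were higher in Chow+T (median log2 difference 0.01), 15 in WSD+C (0.22) and 14 in WSD+T (0.27). Between Degenerating and MI follicles 13 of 22 were higher, with a median of 0.27 against 0.02 over all genes, and 10 of 21 with a median of -0.04 without WSD+C 4 and WSD+T 6.

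The 3 genes of this list with the smallest p between Degenerating and MI follicles were TBXAS1, PTGIR and PTGDS. TBXAS1, thromboxane synthase, was at 23.8 CPM in WSD+T 6, 5.76 in WSD+C 4 and 1.41 or less elsewhere, with a log2 difference of 5.44 (SE 1.55, adjusted p = 0.164 in edgeR and 0.000329 in DESeq2). PTGIR, the prostacyclin receptor, was at 7.78 and 2.24 CPM in the same libraries and 0.49 or less elsewhere (5.22, SE 1.65, adjusted p = 0.177 in edgeR and 0.00481 in DESeq2). Both were thus high in the libraries where PTGS1 and PTGER2 were high and the leukocyte score was over 7. The part of leukocyte RNA in these differences was not tested.

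For the treatments, the smallest p-values in the list belonged to PRXL2B, PTGR1 and PLA2G4B in Chow+T against Chow+C, to SLCO2A1, PTGR1 and PLA2G6 in WSD+C, and to PLA2G6, TBXAS1 and AKR1B1 in WSD+T. PRXL2B, a prostaglandin F synthase, was 0.81 lower in Chow+T on the log2 scale (SE 0.29, adjusted p = 0.658). SLCO2A1, the prostaglandin uptake transporter, was 1.86 higher in WSD+C (SE 0.68, adjusted p = 0.83), with 3.77 CPM in WSD+C 4. PLA2G6, a calcium-independent phospholipase, was 0.87 lower in WSD+T (SE 0.33, adjusted p = 0.717 in edgeR), and the highest Chow+C value, 124 CPM in Chow+C 2, was above all other libraries.

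The lipoxygenase branch, which competes for the same arachidonic acid, had 6 of 6 listed genes tested and 0 called by edgeR or limma-voom. DESeq2 called ALOX15 (adjusted p = 0.000179) and ALOX5AP (adjusted p = 0.000342) between Degenerating and MI follicles, where it called 5.41% of all genes. In edgeR 3 of the 6 had an unadjusted p under 0.05 there, as did 14.3% of all genes. In the main effect of diet 4 of the 6 had one, as did 6.87% of all genes. Without WSD+C 4 and WSD+T 6 it was 2 of 6 between Degenerating and MI follicles, against 4% of all genes. For diet it was 0 of 6 without these libraries, against 5.34% of all genes. The smallest p-values between Degenerating and MI follicles were those of ALOX15 (log2 difference 3.32, SE 0.77, adjusted p = 0.164), ALOX5AP (3.92, SE 1.02, adjusted p = 0.164) and LTC4S (2.55, SE 1.04, adjusted p = 0.29 in edgeR). ALOX5AP, the activating protein of 5-lipoxygenase, was at 14.6 CPM in WSD+C 4, 9.18 in WSD+T 6 and 5.32 in WSD+T 3, the 3 libraries with the highest leukocyte scores, and at 1.58 or less elsewhere. Of the other genes of the ovulatory response, 14 of 15 listed were tested and 0 called by edgeR, DESeq2 or limma-voom, with 1 of 14 at an unadjusted p under 0.05 between Degenerating and MI follicles. CYP19A1 (aromatase), BTC and STAR had the smallest p-values in Degenerating against MI, and CYP19A1 was 1.54 lower (SE 0.68, adjusted p = 0.328).

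**Figure D5:**
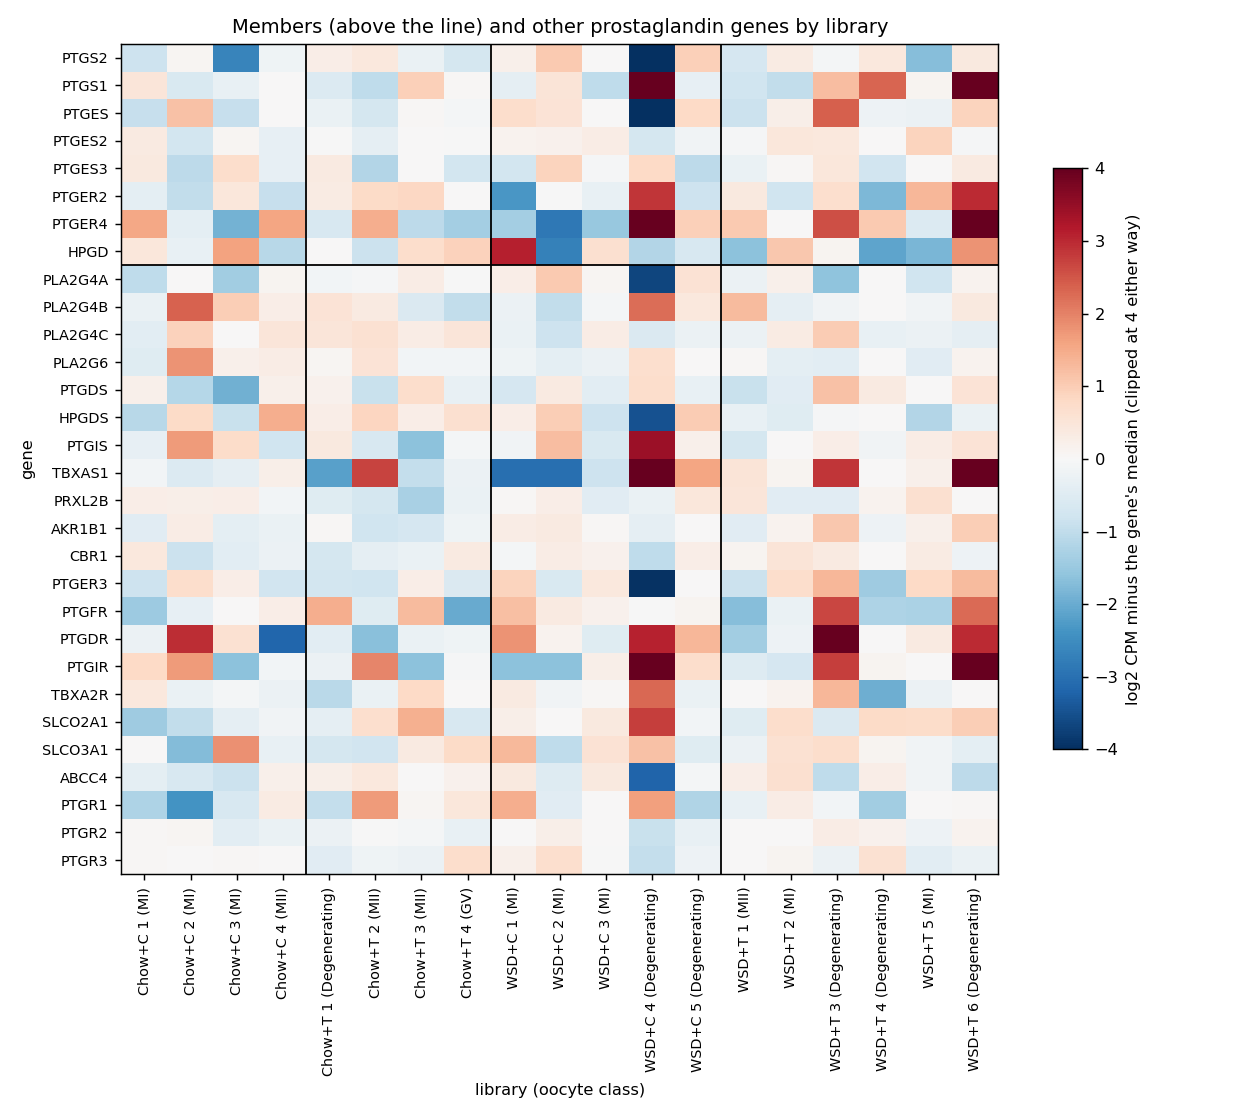
Log2 CPM minus the gene's own median in each library for the 8 members (above the line) and the 22 other tested prostaglandin genes, with libraries ordered by treatment group and the oocyte class in brackets. WSD+C 4 is low in PTGS2, PTGES, PLA2G4A, PTGER3 and ABCC4 and high in PTGS1, PTGER4, TBXAS1 and PTGIR, and WSD+T 6 shares the high genes but not the low ones.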

How the data were processed

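Raw read counts per gene were deposited by the authors in 1 table of 19 libraries. Libraries were polyA-selected and non-directional, per the labels' protocols, so reads of a gene and its antisense partner cannot be separated. The submitters' processing notes name Trimmomatic and STAR, with versions, genome build and annotation not given in the sources used here.

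Genes passing filterByExpr (at least 10 reads, total at least 15) were tested in R 4.3.3 with edgeR 4.0.16: TMM scaling, a robust quasi-likelihood test, two-sided, and Benjamini-Hochberg adjustment over all genes at 0.05. One fit held the 4 treatment groups. A second, of 18 libraries without the GV follicle, compared oocyte classes with treatment group as a term. On simulated counts, the first fit recovered 70% of genes changed by 2 and 95% of those changed by 4 on the log2 scale in WSD+T versus Chow+C (14878 genes), and the second 70% and 89% in Degenerating versus MI (14841 genes). They also called 9 and 4 unchanged genes. The changed genes were drawn above a minimum mean count, which PTGER2 and the row labelled PTGES3 did not reach. Libraries with a distinct mixture of cells were not simulated, so these shares do not give the power for the members. Log2 CPM has a prior count of 1. Correlations were tested two-sided with 100000 permutations in Python 3.11.15 (scipy 1.17.1), adjusted over 12 relations.

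The alternatives were RLE scaling, no filter, DESeq2 1.42.0, limma-voom (limma 3.58.1), a leukocyte score term, an oocyte term or no treatment term, leaving out libraries, and, added after the data were seen, WSD libraries only. Fold changes were reported where they reached 0.5 on the log2 scale or an unadjusted p under 0.25, together with a few intervals. The members and gene lists were chosen with earlier results of these data known. Genes outside the members were named as the 3 with the smallest p of a list in a comparison, or as the 3 most alike by Spearman rho. The 4 further rows of the table, reads assigned to no gene, were left out. Replicate numbers were given in sample order. Reads carry no molecular identifiers.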

Additional observations from a re-analysis of the deposited data

Results flagged for a closer look

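In groups of 4 to 6 libraries, the gap between the lowest or highest library and its neighbour was set against the range of the group, for 32 combinations of 8 genes and 4 treatment groups. In 4 of them the gap exceeded Dixon's 95% critical value, and chance flags about 1 in 20. In WSD+C 4, PTGS2 (log2 CPM 5.16) and PTGES (1.16) were far below the other WSD+C libraries and PTGS1 (1.38) was far above them. In Chow+T 2, PTGES2 (4.99) was below the other Chow+T libraries. WSD+C 4 had a leukocyte score of 7.37 and a granulosa score of 5.99; the part of either in these values was not tested. No member moved in opposite directions with testosterone on the 2 diets, or with diet under the 2 implants, in every animal.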

How the results depend on the processing

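The count of genes called by edgeR was 0 in all 11 comparisons and kept that value in 270 of 284 refits. DESeq2 called 5 genes in Chow+T versus Chow+C, 3 in WSD+T versus Chow+C, 4 in WSD+T versus Chow+T, 3 for testosterone, 5 for diet, 3 for the interaction, 6 in MII versus MI, 801 in Degenerating versus MI and 8 in Degenerating versus MII. Degenerating versus MI gave 574 calls without the treatment term and 0 to 226 when 1 library was left out, the latter without Chow+T 1. Degenerating versus MII gave 3 with the leukocyte score as a term and 0 to 1 when 1 library was left out, and diet gave 0 to 1. One member, PTGER4, was ever called, in Degenerating versus MI: by DESeq2 (5.39), without the treatment term (4.88) and without Chow+T 1 (range 3.41 to 5.77 when 1 library was left out).

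Of 533 refitted log2 fold changes of members, 15 changed sign. In WSD+C versus Chow+C, PTGER2 went from 1.36 to -0.34 and PTGER4 from 3.39 to -1.40 without WSD+C 4 and WSD+T 6, PTGER4 was -0.29 with the leukocyte score and -0.73 with oocyte class as a term, and HPGD was -0.32 by limma-voom. In WSD+T versus Chow+C, PTGER4 was -0.25 with the leukocyte score and -1.11 with oocyte class. The diet effect on PTGER4 was -0.052 and -0.10 with the leukocyte score and without both libraries. PTGER2 in Degenerating versus MI was -1.24 and -0.67 in the same refits. When 1 library was left out, WSD+C versus Chow+C ran from -0.34 to 1.78 for PTGER2, -1.40 to 3.79 for PTGER4 and -1.02 to 1.36 for HPGD, and WSD+T versus Chow+C from -0.013 to 1.37 for PTGES. For relations, a prior count of 5 changed no call. On deviations from group means r was 0.008 for HPGD with the leukocyte score and -0.62 for PTGS2 with PTGER2 (adjusted permutation p = 0.016). Without the 2 farthest libraries r with the leukocyte score was 0.032 for PTGS2, 0.13 for PTGES, 0.084 for PTGES2 and -0.15 for PTGES3, and r of PTGS2 with PTGER4 was 0.018. Apart from refits that leave libraries or genes out, the cause was not tested. No paired analysis was possible because each library came from a different animal, and each animal had only 1 treatment. PTGS1 and PTGES3 rest on too few reads in most libraries to show moderate differences.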

Other observations

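Libraries WSD+T 3 and WSD+T 6, from follicles with a Degenerating oocyte, chosen after their values were seen, shared high levels of genes outside the members. PTGFR, the prostaglandin F receptor, was at 14.8 CPM in WSD+T 3 and 11.2 in WSD+T 6, and at 6.41 or less in the other 17 libraries. AKR1B1, a reductase with prostaglandin F synthase activity, was at 304 and 281 CPM against 184 or less. PTGER3, the EP3 receptor, was at 115 and 109 CPM against 83.3 or less. The surge-induced protease ADAMTS1 was at 945 and 1257 CPM against 549 or less, and the EGF-like ligands AREG (2575 and 3239 against 1576 or less) and EREG (1995 and 1718 against 1293 or less) were also highest there. Several other listed ovulatory genes were highest elsewhere. BTC, another EGF-like ligand, and STAR peaked in Chow+C, at 24 and 5809 CPM. RUNX1 and TNFAIP6 peaked in Chow+T, at 857 and 190 CPM. The share of all genes highest in WSD+T 3 and WSD+T 6 was not counted. PTGES was highest in these libraries only in part, at 1926 CPM in WSD+T 3 and 678 in WSD+T 6 against 821 in Chow+C 2. PTGS2, at 1070 and 1494 CPM, lay among the other libraries.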
